A study of Mus musculus with 9 samples.

Results

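Genes linked to the fetal-like and regenerative state of the intestinal epithelium were followed in intestinal epithelial cells (IECs) after activation of NKT cells in vivo. Their members are the 9 genes Ly6a, Ly6e, Ly6c1, Clu, Anxa1, Anxa3, Ccn1, Ccn2 and Spp1, taken by symbol from a count table of 29288 genes. Early after NKT cell activation, the surface protein genes Ly6a and Ly6e rose, and the matrix protein gene Ccn1 fell. For these 3 genes, levels at the later time lay within or close to the range of the controls. Clu, Anxa3, Anxa1, Spp1 and Ccn2 were low in all 9 libraries, and none of them passed a test.

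After injury, the adult crypt can take on a state in which genes of the fetal epithelium are switched back on while the markers of homeostatic stem cells recede. Ly6a encodes Sca-1, the surface protein most often used to recognise these cells, and Clu marks the revival stem cells that appear after damage. The transcriptional coactivators YAP and TAZ act through TEAD factors in this response, and Ccn1 and Ccn2, which encode secreted matricellular proteins, are among their best known targets. Genes of the Ly6 family are also known as interferon-responsive genes in many cell types.

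All 9 mice were female C57BL/6J wild-type (WT) animals, 3 per group. The control group received PBS and was sampled at 18 h. The 18h-αGal group was sampled 18 h, and the 72h-αGal group 72 h, after an intraperitoneal dose of 2 µg of α-galactosylceramide (αGal), a lipid that CD1d presents to NKT cells and that activates them. IECs were taken from crypts of the proximal small intestine and sorted as live EpCAM+ cells without Ter119, CD31 or CD45, the surface markers of red cells, endothelium and leukocytes. The only controls were sampled at 18 h, so at 72 h the treatment and the time of sampling cannot be told apart. The labels gave no age, and the study's methods give only an age range, in weeks, over all its experiments.

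Libraries held between 8887861 and 32722293 counts. Control replicate 3 was the smallest and stood apart on the second principal component (18.5% of variance), at -46.15 against 0.01 to 14.62 elsewhere. The labelled cell type was checked against 10 epithelial markers, whose summed level was 5793 to 6907 CPM (counts scaled by the library total) over the 9 libraries. Lymphocyte markers (12 of 15 in the table) summed to 2.01 to 10.4 CPM. Endothelial markers (10 of 10) summed to 21.2 to 36.4 CPM, of which Egfl7 gave most counts. The endothelial gene Cdh5 was at 0 in 6 libraries. By contrast, Pecam1, which encodes CD31, had 14 to 53 raw counts in every library, and Esam had 16 to 122. Values below are normalised counts, which are counts divided by a size factor of the library, and fold changes and adjusted p come from a quasi-likelihood fit in edgeR, corrected over 18933 genes by the Benjamini-Hochberg method. Of the 9 members, 5 passed the filter on low counts (Ly6a, Ly6e, Clu, Anxa3 and Ccn1).

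To show the start of a gene that fell and of a gene seen in treated mice alone, the 250 bases before the start of Ccn1 and of Ly6c1 are given from RefSeq (GRCm38.p6, minus strand in both, at chr3:145649986-145650235 and chr15:75048838-75049087). Windows were found for 4 of the 9 members (Anxa1, Ccn1, Ly6c1 and Spp1). Capitals mark the TEAD core GGAATG, read here on the other strand.
Ccn1: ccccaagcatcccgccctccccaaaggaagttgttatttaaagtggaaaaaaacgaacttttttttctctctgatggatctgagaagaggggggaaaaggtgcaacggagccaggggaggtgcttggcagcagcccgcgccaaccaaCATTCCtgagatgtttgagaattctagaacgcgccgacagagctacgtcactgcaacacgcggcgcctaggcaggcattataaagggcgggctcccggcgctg
Ly6c1: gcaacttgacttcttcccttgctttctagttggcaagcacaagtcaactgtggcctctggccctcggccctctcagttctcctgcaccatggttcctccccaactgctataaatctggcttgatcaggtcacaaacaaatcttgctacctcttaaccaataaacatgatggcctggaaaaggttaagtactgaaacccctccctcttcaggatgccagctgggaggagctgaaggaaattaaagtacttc
The match in Ccn1 lay 103 bases before the start. The TEAD core was present on either strand in 14.7% of 32851 RefSeq windows that ran from 250 bases before to 50 bases after a start. The Anxa1 window held the same core 236 bases before its start. The AP-1 site TGANTCA (7.81% of windows), the interferon-γ-activated site (GAS, 8.30%) and the CArG box (1.63%), sought on both strands, had no match in the 6 windows of these 4 members. A match is a stretch of letters and not a shown binding site.

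The first comparison asked how the members stood 18 h after αGal. Of the 5 members tested, 3 were called at an adjusted p under 0.05, with Ly6a and Ly6e higher and Ccn1 lower, and 5.96% of all tested genes were called. The libraries of the groups did not overlap for 4 of the 5, against 23.8% of all tested genes. Across all 18933 genes the median log2 fold change was -0.03. Since these are bulk samples, more cells of a type and more RNA per cell cannot be told apart in any of the values that follow.

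Ly6a (ENSMUSG00000075602, chromosome 15 from 74863840 to 74869880 in GRCm39) had the largest change among the 5 members tested. Control replicates 1, 2 and 3 had 9.40, 36.1 and 116 normalised counts, 18h-αGal replicates had 1351, 2518 and 1453, and 72h-αGal replicates had 37.1, 44.4 and 7.36. Every 18h-αGal library was far above every other library, and the control and 72h-αGal ranges overlapped. Means ± SD of the 3 mice were 54.0 ± 55.8 in controls and 1774 ± 646 at 18 h. On the log2 scale Ly6a rose by 5.37 ± 0.95 (SE, 95% interval 3.09 to 7.64), and edgeR gave an adjusted p of 0.0247. The controls differed more than 10-fold among themselves. Without control replicate 3, the log2 fold change was 6.40 ± 0.89 with an edgeR adjusted p of 0.0113, and without control replicate 1 it was 4.69. The call was lost in 8 of 18 alternative settings, with edgeR adjusted p between 0.0503 and 0.0998, among them the omission of control replicate 2 (0.0998), of any 18h-αGal library (0.0525 to 0.0885) or of 72h-αGal replicate 1 or 2 (0.0583 and 0.0506). With the replicate number as a block the edgeR adjusted p was 0.0805. The call held in the other 10 of the 18 settings. Among these, the adjusted p was 9.02e-06 with DESeq2, 0.000166 with limma-voom and 0.00122 with edgeR without robust estimation.

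Ly6e (ENSMUSG00000022587, chromosome 15 from 74826860 to 74847454) lies in the same gene cluster and encodes a GPI-anchored protein like Sca-1. It had 2750, 4996 and 5544 normalised counts in controls, 15761, 20398 and 16687 at 18 h, and 6022, 4171 and 5212 at 72 h. It was well expressed in the PBS controls, where Ly6a was low, and all 18h-αGal libraries lay above all others. The log2 fold change at 18 h was 2.00 ± 0.25 (95% interval 1.45 to 2.55) with an edgeR adjusted p of 0.00179, and the call held in 18 of 18 alternatives, with log2 fold changes between 1.75 and 2.19.

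Ly6c1 (ENSMUSG00000079018, chromosome 15 from 74915847 to 74920686), better known as a surface marker of monocytes, some T cells and endothelium, was at 0 counts in each control and 72h-αGal library. The 18h-αGal replicates had 40, 34 and 2 raw counts (25.2, 30.5 and 2.76 normalised), the last of them under the floor of 3 counts. Together these were 76 of 67321204 counts against 0 of 60918368 in controls. The pooled level at 18 h was 22.9-fold that of a floor of 3 counts set over the controls, which is not a lower bound of the change. Its 95% exact Poisson interval was 0.889 to 1.41 CPM, against 0 to 0.0606 CPM in controls. Such intervals and floors cover counting error only, and not the spread between mice. The gene did not pass the filter. In a fit of all 29288 genes with no filter, its edgeR adjusted p was 0.0488.

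Reads of the Ly6 genes are hard to assign. Of all 50-base words in the Ly6c1 transcripts, 39.9% also occurred in another gene, mainly Ly6c2 (29.8%) but also Ly6a, and for Ly6a the share was 19.1%. Counts of Ly6c1 were 1.87%, 1.21% and 0.190% of those of Ly6a in 18h-αGal replicates 1, 2 and 3, so the ratio was not constant, and whether some of these reads came from Ly6a was not tested. The antisense gene Gm28068, which overlaps Ly6a, had 10 counts in 18h-αGal replicate 3 and 0 elsewhere. Ly6a and Ly6c1 are also expressed by lymphocytes and endothelium, and Ly6c1 by monocytes. At 18 h, lymphocyte markers summed to 2.01 to 4.77 CPM, against 3.38 to 5.04 in controls. Of these, Cd3g, Trbc2, Cd4, Nkg7 and Gzmb were at 0 in all 3 18h-αGal libraries. However, Nkg7 was at 0 in all 3 controls as well, and Trbc2 and Gzmb were at 0 in 2 of 3. The B cell gene Ms4a1 had 10, 4 and 2 raw counts at 18 h and 0 in each control. The leukocyte gene Ptprc had 40, 44 and 19 against 50, 15 and 6. Endothelial markers summed to 21.2 to 33.0 CPM at 18 h and 26.1 to 36.4 in controls. Kdr and Emcn were at 0 in all 3 18h-αGal libraries, though Kdr was at 0 in 2 of 3 controls as well. Tie1 had 6, 28 and 0 raw counts at 18 h against 0 in each control, and Plvap had 4, 41 and 3 against 0, 18 and 0. Pecam1 went the other way, with 20, 14 and 15 raw counts at 18 h against 53, 50 and 16. Myeloid markers (11 of 13 in the table) summed to 29.4 to 44.7 CPM at 18 h, 31.1 to 36.0 in controls and 42.8 to 58.4 at 72 h. Tyrobp, C1qa and S100a8 were at 0 in all 3 18h-αGal libraries, though C1qa was at 0 in 2 of 3 controls as well. Adgre1 had 0, 4 and 4 raw counts at 18 h against 0 in each control. The part of such cells in the values of the Ly6 genes was not tested.

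**Figure D1:**
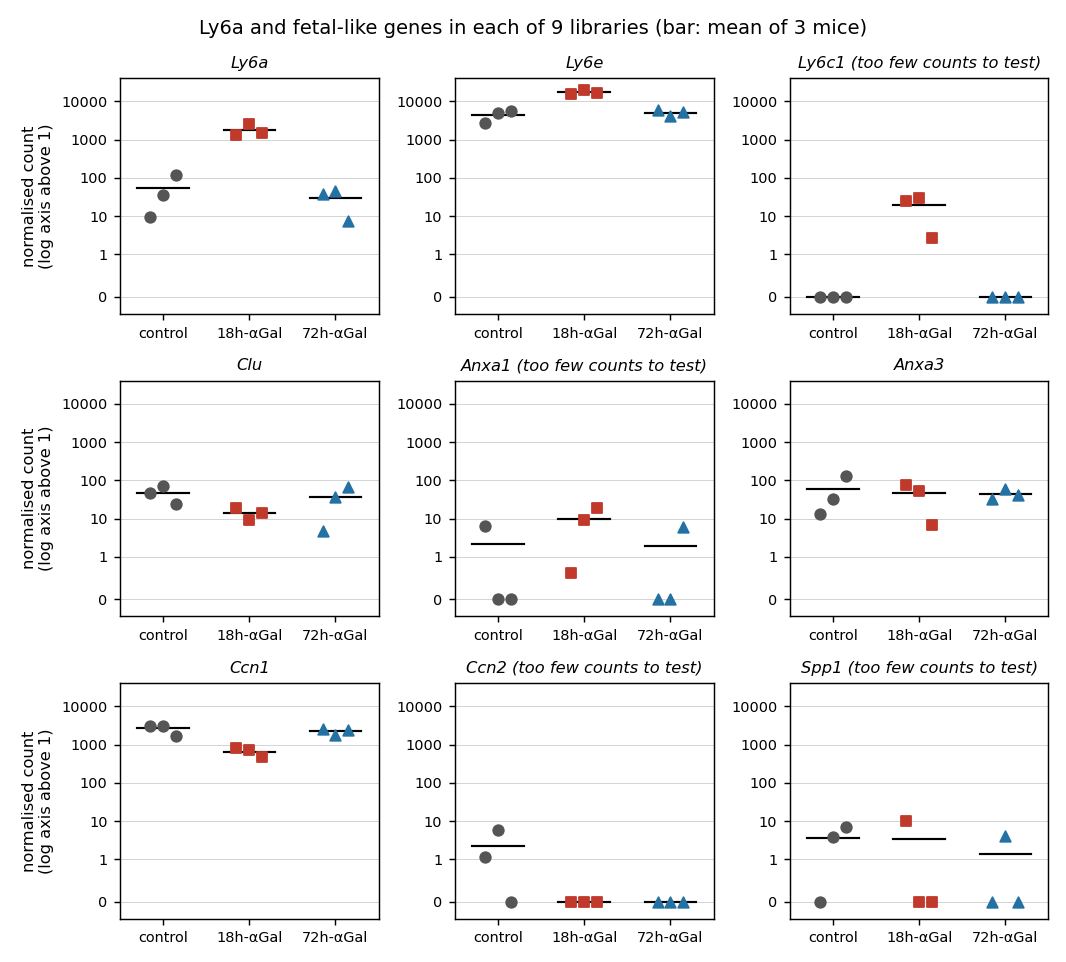
Normalised counts of the 9 members in each library (vertical axis, logarithmic above 1), with points for control, 18h-αGal and 72h-αGal mice and a bar for the mean of 3 mice. The 18h-αGal libraries lie above the others for Ly6a, Ly6e and Ly6c1 and below them for Ccn1, while Anxa1, Ccn2 and Spp1 stay near 0.

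Ccn1 (ENSMUSG00000028195, chromosome 3 from 145352720 to 145355738) moved the other way. It had 3099, 3163 and 1678 normalised counts in controls, 800, 709 and 469 at 18 h, and 2581, 1807 and 2445 at 72 h. All 18h-αGal libraries were below all others. The log2 fold change at 18 h was -2.00 ± 0.28 (95% interval -2.63 to -1.36) with an edgeR adjusted p of 0.00423, and the gene was called in 18 of 18 alternatives, from -2.24 to -1.80. Its antisense gene Gm17501, which shares 17.9% of the words of Ccn1, had 2 to 52 raw counts per library, against 340 to 5276 for Ccn1.

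The summed level of markers of stromal cells, which also make Ccn1, was lower at 18 h too. The 10 of 11 stromal markers in the table summed to 8.33 to 9.58 CPM in controls, 3.25 to 4.31 at 18 h and 4.85 to 7.49 at 72 h, and their part in the change of Ccn1 was not tested. Among them, Pdgfra, Dcn, Des and Myh11 were at 0 in all 3 18h-αGal libraries, though Dcn and Des were at 0 in 2 of 3 controls as well. By contrast, Acta2 had 24, 5 and 5 raw counts at 18 h against 7, 8 and 0 in controls, and Col3a1 had 9, 2 and 4 against 1, 0 and 4. Neither gene had enough counts to be tested. The 5 stromal markers that were tested all had negative log2 fold changes at 18 h, with a median of -1.88. Of these, 0 were called by edgeR and 1 had an unadjusted p under 0.05. Ccn1 alone had a mean of 138 CPM over the 3 controls and of 33.5 CPM at 18 h. Its normalised counts ran from 1678 to 3163 in controls and from 469 to 800 at 18 h. The 10 crypt stem cell markers summed to 1875 to 4010 CPM in controls, 643 to 2021 at 18 h and 2589 to 4350 at 72 h, and their part was not tested either.

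Ccn2 (ENSMUSG00000019997, chromosome 10 from 24471333 to 24474900), the close relative of Ccn1 and also a YAP target, gave 2, 6 and 0 raw counts in controls and 0 in each of the 6 αGal libraries. At this depth no difference was detectable, and the edgeR adjusted p with no filter was 0.423. In addition, 36.5% of its exon bases overlap the antisense gene Gm15270.

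Clu (ENSMUSG00000022037, chromosome 14 from 66190200 to 66218999), which encodes the chaperone clusterin, had 48.2, 70.2 and 23.8 normalised counts in controls, 19.5, 8.98 and 13.8 at 18 h and 4.63, 37.3 and 67.0 at 72 h. The 18h-αGal libraries lay below the controls without overlap, but the log2 fold change of -1.74 ± 0.79 did not pass (edgeR p of 0.0435, adjusted p of 0.221), nor did it in any of 18 alternatives, where it stayed negative between -2.09 and -1.35. The upper 95% bound of its change was -0.06 on the log2 scale at 18 h and 1.24 at 72 h.

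Annexins are calcium-dependent membrane-binding proteins, and Anxa1 is an anti-inflammatory mediator used as a marker of the regenerating epithelium. Anxa1 (ENSMUSG00000024659, chromosome 19 from 20350792 to 20368374) had 6.46, 0 and 0 normalised counts in controls, 0.631, 8.98 and 19.3 at 18 h and 0, 0 and 5.89 at 72 h. The groups overlapped, with 44 raw counts in all 9 libraries together, and no difference was detectable (edgeR adjusted p of 0.644 at 18 h with no filter). Anxa3 (ENSMUSG00000029484, chromosome 5 from 96940544 to 96993828) had 13.5, 32.3 and 133 normalised counts in controls, 76.3, 53.9 and 6.90 at 18 h and 33.6, 59.5 and 41.2 at 72 h. Its spread within groups exceeded any difference between them, with a log2 fold change of -0.27 ± 0.83 (95% interval -2.07 to 1.53) at 18 h. Without control replicate 3 this value became 1.04, so it carried no direction.

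Spp1 (ENSMUSG00000029304, chromosome 5 from 104582165 to 104589235) encodes osteopontin, a secreted phosphoprotein. Raw counts were 0, 4 and 3 in controls, 16, 0 and 0 at 18 h and 0, 4 and 0 at 72 h, and 5 of the 9 libraries were at 0. No difference was detectable at this depth.

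**Figure D2:**
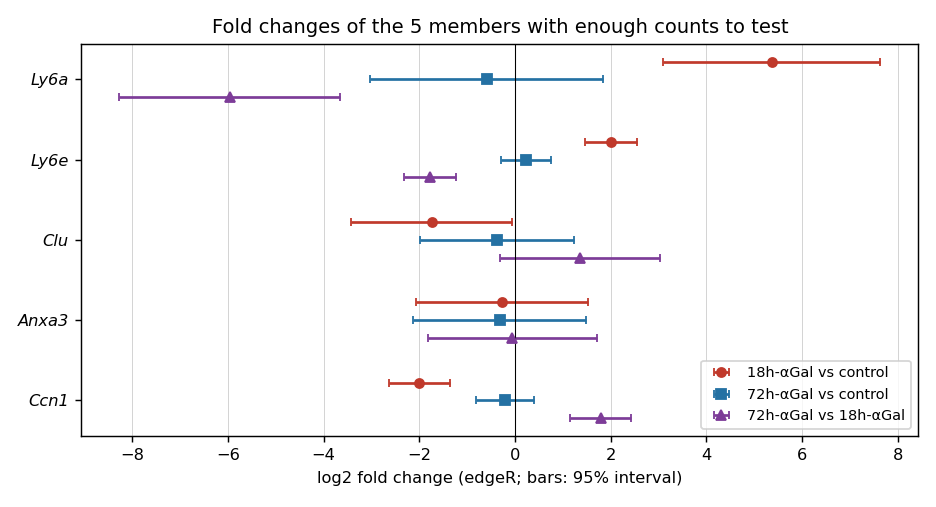
Log2 fold changes from edgeR with 95% intervals (horizontal axis) of the 5 members tested, for each αGal group against control and for the later αGal group against the earlier. Intervals of Ly6a, Ly6e and Ccn1 exclude 0 in the first and last comparison. That of Clu, which was not called, excludes 0 narrowly in the first alone (upper bound -0.06). All 5 include 0 at 72 h against control.

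To compare members with each other, normalised counts were divided by exon length and are given as means per kb with the SD of 3 mice. In controls, Ccn1 (1302 ± 413 per kb) and Ly6e (973 ± 325) were highest, with overlapping ranges. Ly6a (11.6 ± 12.0), Anxa3 (9.61 ± 10.4) and Clu (8.41 ± 4.13) followed, did not overlap Ly6e and did not differ from each other beyond their spread. Spp1, Ccn2, Anxa1 and Ly6c1 were at most 1.28 per kb on average.

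At 18 h the order changed. Ly6e led with 3869 ± 539 per kb, and Ly6a (382 ± 139 per kb) came next, level with Ccn1 (324 ± 84.0 per kb). Ranked among 18694 genes by their level per kb, Ly6a went from percentile 23.1 in controls to 89.8 at 18 h and 14.5 at 72 h. Ly6e stayed near the top, at percentiles 97.2, 99.5 and 97.9, and Ccn1 was at 98.1, 88.0 and 97.9. At 72 h, Ly6e (1128 ± 204 per kb) and Ccn1 (1121 ± 203 per kb) were highest, with overlapping ranges. Anxa3 (7.21 per kb), Clu (6.45) and Ly6a (6.37 ± 4.22) lay far below them and overlapped.

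**Figure D3:**
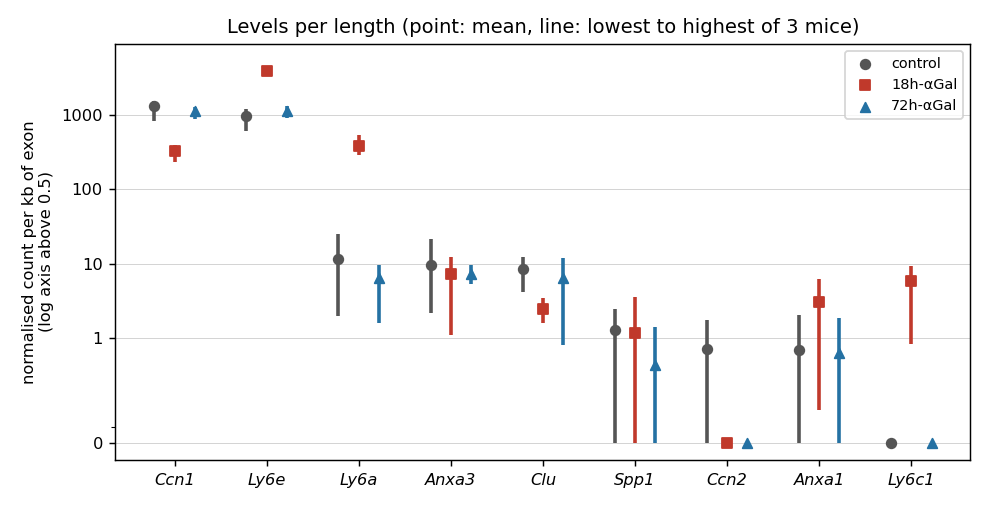
Normalised counts per kb of exon (vertical axis, logarithmic above 0.5) of the 9 members, as the mean (point) and the lowest to highest of 3 mice (line) in each group. Ly6a reached the level of Ccn1 at 18 h alone, at 382 and 324 per kb.

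At 72 h against control, 0 of the 5 tested members were called by edgeR, 0 reached an unadjusted p under 0.05, and 0 were called by DESeq2 or limma-voom. Of all tested genes 0.0264% were called. The libraries overlapped for all 9 members, against 12.7% of tested genes without overlap. Ly6e had a log2 fold change of 0.23 ± 0.24 (95% interval -0.30 to 0.76) and Ccn1 of -0.21 ± 0.27 (-0.82 to 0.40), so that changes as large as those at 18 h lay outside these intervals. For Ly6a the interval of -3.03 to 1.85 was wide, and its value of -0.59 ± 1.02 turned to 0.43 without control replicate 3.

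Between the αGal groups, Ly6a was lower at 72 h than at 18 h by a log2 fold change of -5.96 ± 0.96 (edgeR adjusted p of 0.0126), Ly6e by -1.77 ± 0.24 (0.00214), and Ccn1 was higher by 1.79 ± 0.28 (0.00464). These 3 of the 5 tested members were called, against 10.2% of all tested genes, and their libraries did not overlap, against 32.8% of genes. The 18h-αGal libraries enter both this comparison and the one with controls, so the 2 sets of values are not independent. Ly6e and Ccn1 were called in 18 of 18 alternatives. Ly6a lost its call without 72h-αGal replicate 1, with an edgeR adjusted p of 0.0605. The pooled level of Ly6c1 at 18 h was 22.5-fold that of a floor of 3 counts set over the 72h-αGal group.

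**Figure D4:**
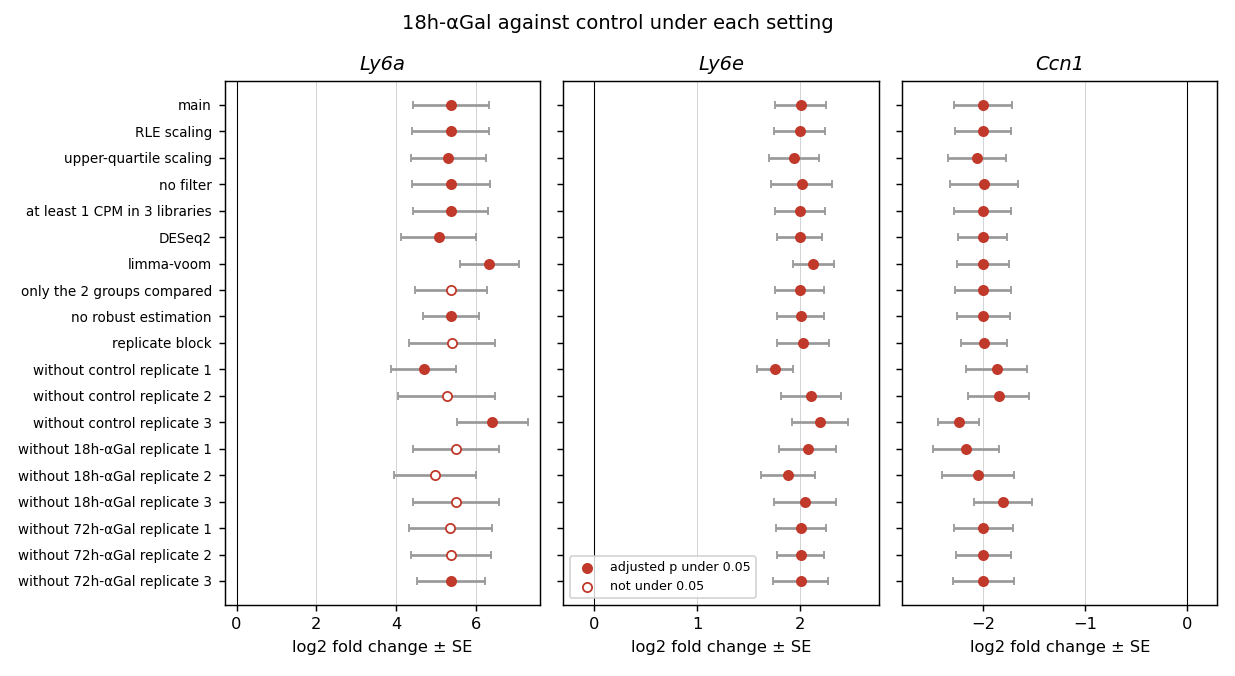
Log2 fold change ± SE (horizontal axis) of Ly6a, Ly6e and Ccn1 at 18 h against control in each of 19 settings, the main one included. Filled points have an adjusted p under 0.05. The value of Ly6a stays between 4.69 and 6.40 but 8 points are open, and all points of Ly6e and Ccn1 are filled.

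Other genes of the same programmes were read from fixed lists. Of 26 other fetal-like and regenerative genes, 22 were tested at 18 h, and edgeR called 0 higher and 2 lower (1 and 4 at an unadjusted p under 0.05), with a median log2 fold change of -0.04 beside -0.03 for all genes. The alternatives called 0 higher and 1 or 2 lower. F3, which encodes the coagulation receptor tissue factor, had 244, 173 and 242 normalised counts in controls, 71.2, 50.3 and 85.5 at 18 h and 185, 141 and 155 at 72 h. It fell by 1.67 ± 0.30 on the log2 scale (edgeR adjusted p of 0.00514). The EGF receptor ligand gene Hbegf fell less, with -0.55 ± 0.15 (0.0451). Of the remaining 20 genes none was called, with log2 fold changes from -0.82 (Anxa5) to 0.99 (Basp1). Between the αGal groups, F3 was higher at 72 h than at 18 h by 1.23 ± 0.30 on the log2 scale (0.0174), while Krt7 and S100a10 were lower, by -0.41 ± 0.10 (0.0216) and -0.51 ± 0.16 (0.0496). Msln and Anxa8 were not analysed here, since no row of the count table was matched to their symbols.

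Of 18 YAP/TEAD target genes other than the members, 15 were tested, 1 was called higher and 2 lower at 18 h, and 12 of the 15 values were negative, with a median of -0.34. Lmcd1, a LIM domain cofactor gene, went from 246, 336 and 328 normalised counts to 157, 83.5 and 93.8 and back to 210, 353 and 294 at 72 h. Its change at 18 h was -1.42 ± 0.30 on the log2 scale (edgeR adjusted p of 0.0118). Crim1, which encodes a membrane protein that binds growth factors, fell by 0.71 ± 0.18 on the log2 scale (0.0304), and Dock5, a guanine nucleotide exchange factor gene, rose by 0.54 ± 0.15 (0.042). Lmcd1 was higher at 72 h than at 18 h by 1.35 ± 0.30 (0.00977), and Dock5 was lower, with -0.51 ± 0.15 (0.0382). Ankrd1, a standard YAP target, had at most 7.05 normalised counts in any library. Under the alternatives, between 0 and 2 of these targets were called lower and 0 or 1 higher.

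The 15 genes of the YAP/TEAD pathway itself were all tested, and 0 were called at 18 h (6 had an unadjusted p under 0.05), with a median of 0.07. Yap1 had a log2 fold change of 0.08 ± 0.12. Tead1 (-0.45 ± 0.13, edgeR adjusted p of 0.0516) and Wwtr1, which encodes TAZ (-1.26 ± 0.39, 0.0687), were close to the threshold, and without control replicate 3 there were 3 genes called lower. Tead1, Amot, Vgll4 and Wwtr1 were higher at 72 h than at 18 h, with log2 fold changes of 0.57, 0.62, 0.60 and 1.29 and edgeR adjusted p between 0.0117 and 0.0472, although the alternatives called between 0 and 4 of the 15 higher.

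Of 17 other genes of the Ly6 cluster, 3 were tested and 0 were called at 18 h, with Lynx1 at 1.99 ± 0.75 (edgeR adjusted p of 0.135) and 1 unadjusted p under 0.05. Ly6c2, Ly6d, Ly6g and Ly6i were not analysed here, since no row of the count table was matched to their symbols. Of 10 other annexins, 8 were tested and 0 called at 18 h (2 had an unadjusted p under 0.05), and Anxa6 was lower at 72 h than at 18 h by -1.77 ± 0.37 (0.0081). Of the 8 other CCN and osteopontin-related genes, only Ccn4 had enough counts to be tested, with a log2 fold change of -1.63 ± 1.52. All 10 crypt stem cell markers had negative values at 18 h, with a median of -0.84, and 0 were called by edgeR (4 had an unadjusted p under 0.05, and up to 3 were called under the alternatives). Axin2 was higher at 72 h than at 18 h by 1.64 ± 0.34 (0.0218), and of 10 epithelial markers Krt18 was higher by 0.54 ± 0.15 (0.0297). At 72 h against control, 0 genes of these lists were called by edgeR or under any alternative, and at most 1 gene of a list had an unadjusted p under 0.05.

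**Figure D5:**
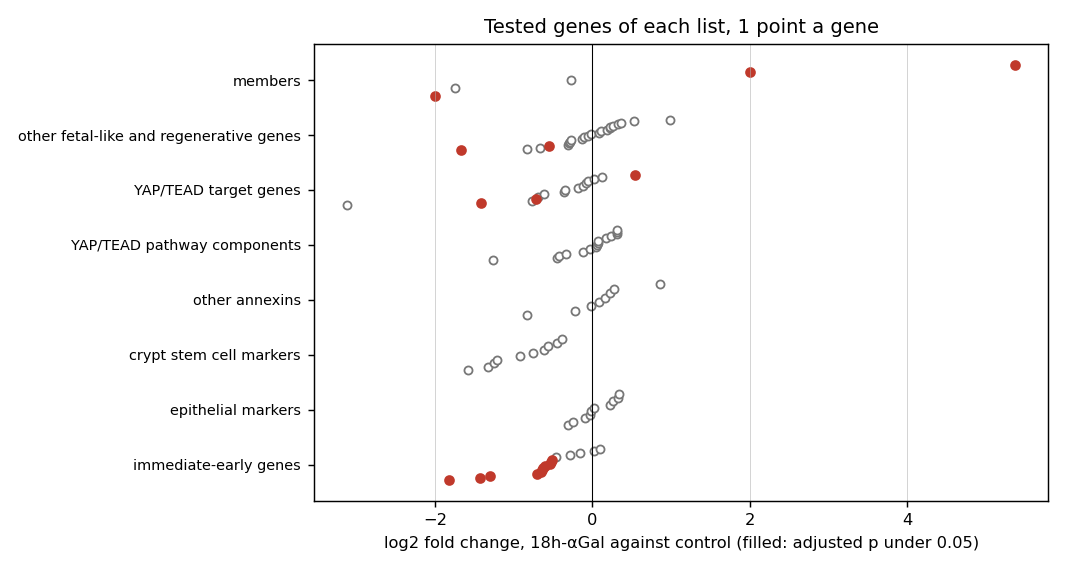
Log2 fold change at 18 h against control (horizontal axis) of each tested gene in the members and in 7 other lists, with 1 point per gene and filled points for an adjusted p under 0.05. The list of immediate-early genes was chosen after values of Ccn1 were seen. Ly6a lies at 5.37, beyond every other point, and filled points of the fetal-like, YAP/TEAD target and immediate-early lists lie mostly on the negative side.

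The genes whose levels over the 9 libraries were most like those of Ly6a were taken by Pearson r of log2(normalised count + 1), among 11146 tested genes with a mean of at least 100 counts. They were Gm12250 (r of 0.991), Cyb5r4 (0.991), Gnai3 (0.988), Zbp1 (0.988) and Crybg1 (0.985). Of these, Gm12250, an interferon-inducible GTPase gene, and Zbp1, a sensor of Z-form nucleic acids that is itself interferon-inducible, had log2 fold changes of 3.57 and 2.87 at 18 h (edgeR adjusted p of 0.00546 and 0.0883), while those of Cyb5r4, Gnai3 and Crybg1 were between 0.60 and 0.69.

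Ly6e was most like the complement gene C3 (r of 0.973), Mis12 (0.970) and Serping1 (0.970), which encodes the C1 inhibitor. C3 and Serping1 rose by 3.91 and 5.35 on the log2 scale at 18 h (edgeR adjusted p of 3.27e-05 and 5.24e-05). Ccn1 was most like Lrrc58 (0.990), Ces1d (0.984), the immediate-early gene Nr4a1 (0.982), Lamb3 (0.981), a laminin-332 subunit gene, and Ctdsp2 (0.978). Among members, the most alike pair was Ly6a and Ly6e (0.940), and Ly6a and Ccn1 had an r of -0.93. The 9 points of each r share their libraries and fall into the study's groups, so these values describe the libraries and carry no test.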

How the data were processed

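RNA-seq libraries of sorted crypt IECs from 9 mice were analysed. Per the labels, RNA was extracted with RNeasy, ribodepleted and made into directional libraries with 100 bp reads, and the submitters' processing notes name HISAT2, featureCounts (Subread), DESeq2 1.42.0 and GRCm38 (mm10), whereas the study's methods give GRCm39. The strand setting was not given in the sources used here, so reads of antisense partners cannot be told apart. The authors deposited raw counts per gene and a normalised signal that equals the count divided by DESeq2's size factor (largest relative difference 5.11e-15). Of 29288 identifiers, 28480 matched GENCODE (GRCm39, used for symbols, exon lengths and gene positions) and 808 did not.

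Counts were tested with edgeR 4.0.16 in R 4.3.3 (filterByExpr, TMM, robust quasi-likelihood, common dispersion 0.123) in a single fit of 3 group means over all 9 libraries, and genes with a Benjamini-Hochberg adjusted p under 0.05 were called. DESeq2 1.42.0, limma-voom (limma 3.58.1), other scalings, filters and left-out libraries were alternatives. SEs came from the F statistic. The procedure was tested on simulated data. A floor of 3 counts, 0.0917 to 0.338 CPM per library, was used.

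Libraries came from separate mice and the labels pair none across groups. Correlations of same-numbered libraries' deviations from group means lay between -0.15 and 0.115, so the numbers were not taken as pairs. All 9 members are named. In other lists up to 6 called genes per comparison are named, the smallest adjusted p first, and the 5 genes most like Ly6a, Ly6e or Ccn1 could be named. Other named genes (Anxa5, Basp1, Ankrd1, Yap1, Tead1 and Wwtr1 at 18 h, Lynx1, Ccn4) were chosen after their values were seen. Values of untested members without the filter and list counts under the alternatives were added after seeing the data. Members and lists were chosen with earlier results of these data known.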

Additional observations from a re-analysis of the deposited data

Results flagged for a closer look

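The levels of 3 members differed between the times of sampling after αGal, as tested by the contrast of 72h-αGal with 18h-αGal. The control mean does not enter this contrast, so it compares levels in treated mice and not effects of αGal. The log2 fold change was -5.96 for Ly6a (edgeR adjusted p of 0.0126), -1.77 for Ly6e (0.00214) and 1.79 for Ccn1 (0.00464), with 3 of 3 libraries of each group on the same side for each gene. Time and treatment cannot be told apart here, since no control was sampled at 72 h.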

How the results depend on the processing

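Of 270 values of the 5 tested members under 18 alternatives and 3 comparisons, 246 kept direction and call, 9 lost their call and 15 turned in sign. The lost calls were all of Ly6a, 8 at 18 h and 1 between the αGal groups, and the sign turned only for values that were not called. With 2 to 4 members called at 18 h and between the αGal groups and 0 at 72 h over 19 alternatives, the counts of members kept within 1.5 times of the main ones. Anxa3 turned to 0.73 (18 h) and 0.82 (72 h) with limma-voom and, between the αGal groups, to 0.032 with upper-quartile scaling and 0.093 with limma-voom. With 1 library left out in turn, Anxa3 ranged from -0.86 to 1.04 at 18 h, from -0.82 to 0.99 at 72 h and from -0.53 to 0.54 between the αGal groups. At 72 h, Ly6a ranged from -1.27 to 0.43, Ly6e from -0.015 to 0.42 and Clu from -1.17 to 0.14. The cause was not tested.

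Over all genes, 1128 were called at 18 h, 593 with only the 2 groups compared, 426 when a 2-fold change or more was also required, and 432 (without 18h-αGal replicate 2) to 1556 (without control replicate 3) with 1 library left out. Without control replicate 1 there were 489 and without control replicate 2 there were 681. At 72 h there were 5 as reported, 13 with no filter, 30 with DESeq2, 3 without robust estimation, 1 with the replicate block and 0 to 20 with 1 library left out. Between the αGal groups there were 1936, 682 when a 2-fold change or more was also required, and 831 (without 72h-αGal replicate 3) to 2593 with 1 library left out. The replicate block gave 781 genes at 18 h and 1371 between the αGal groups, and of the members it changed only the call of Ly6a at 18 h (5.39, adjusted p of 0.0805). It shares only a number between mice.

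Depth limits Anxa1, Ccn2, Spp1 and Ly6c1, which had 8 to 76 raw counts over the 9 libraries, and 3 mice per group limit Ly6a, Clu and Anxa3.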

Other observations

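Ccn1 is also an immediate-early gene, one that is transcribed within minutes of a growth factor or stress signal, and Nr4a1 was among the genes most like it. A list of 16 immediate-early genes was therefore written after the values of Ccn1 had been seen. Nr4a1 is on this list but was picked by its likeness to Ccn1 in the same libraries, so its values are no separate evidence. At 18 h, 11 of the 16 were called lower and 0 higher by edgeR, where 5.96% of all tested genes were called in either direction. Their median log2 fold change was -0.57 beside -0.03 for all genes. Between 7 and 12 were called lower under the alternatives (12 without control replicate 3). Nr4a1, an orphan nuclear receptor gene, had 3456, 4512 and 2201 normalised counts in controls, 1008, 1045 and 806 at 18 h and 3634, 2935 and 3875 at 72 h, a log2 fold change of -1.83 ± 0.23 at 18 h (edgeR adjusted p of 0.00156). Egr2 had -1.43 ± 0.19 (0.000628), Nr4a2 -1.30 ± 0.22 (0.00579), Atf3 -0.70 ± 0.10 (0.00137) and Fos -0.52 ± 0.11 (0.0116), and Klf2, Klf6, Ier3, Zfp36 and Fosb were not called. At 72 h against control 0 were called by edgeR (2 had an unadjusted p under 0.05) or under any alternative. Between the αGal groups, 12 were called higher at 72 h than at 18 h, where 10.2% of all tested genes were called in either direction.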
